A study of Mus musculus with 24 samples.

Results

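TNF, IL-6, IL-10 and related cytokines were followed through 10 genes of 18740 listed for bone marrow-derived macrophages (BMDMs) treated with dopamine (DA). The 10 genes were picked by symbol: the cytokine genes Tnf, Il6, Il1a, Lif, Osm and Il10, the receptor antagonist gene Il1rn, and the receptor genes Tnfrsf1a, Tnfrsf1b and Il10ra. All 10 are listed in the files of both stimuli. BMDMs came from male C57BL/6 mice aged 10 weeks that were either WT or DRD5-/-, the latter lacking the DA receptor DRD5 after CRISPR-Cas9 editing. For 12 h the cells received LPS (100 ng/ml) with IFN-γ (50 ng/ml), named M1 here, or IL-4 with IL-13 (10 ng/ml of each), named M2. Each stimulus was given without DA or with 20 μM DA, which makes 8 groups: WT M1, WT M1 with DA, DRD5-/- M1, DRD5-/- M1 with DA, WT M2, WT M2 with DA, DRD5-/- M2 and DRD5-/- M2 with DA. Each group holds 3 RNA sequencing libraries, 24 in all. The methods of the study describe marrow from tibias and femurs grown in L929-conditioned medium and the tissue label reads bone, whereas the label on growth names colons. The labels number the 3 libraries of a group without saying whether they are separate mice or cultures, so every p-value here measures only the spread between these libraries, which may be technical.

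TNF and IL-1α are released early by activated macrophages and act on neighbouring cells through receptors that lead to NF-κB and MAP kinase signalling, while IL-6, LIF and OSM belong to the family that signals through gp130 and STAT3. IL-10 and the IL-1 receptor antagonist hold this response in check: IL-10 acts back on macrophages through IL-10RA and STAT3, and the antagonist occupies the IL-1 receptor without activating it. LPS with IFN-γ is the classical stimulus for inflammatory macrophages, and IL-4 with IL-13 the classical stimulus for the alternative state.

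Levels are FPKM, fragments per kilobase of transcript scaled to the mapped fragments of the library, so they can be compared between genes. The files give no read counts. The steps between low FPKM values of genes with a single annotated transcript of 300 to 1500 bases put the depth at 16500000 to 20900000 fragments per library (median 19500000), from 189 to 231 values per library, an estimate that depends on the GENCODE transcript lengths used. In each library 52.5 to 65.0% of those values lay within 0.2 fragment of a whole number, where evenly spread values would give 40% at a depth fixed beforehand. The depth was chosen to bring these same values near whole numbers, so the excess over 40% is no test of the estimate. Drd5, the gene deleted in DRD5-/- mice, is not listed for M1 and lies at 0 in M2 except 0.06 and 0.03 FPKM in 2 WT libraries, so the genotype could not be checked from its level. The macrophage identity could be checked: all 8 macrophage markers (Adgre1, Cd68, Csf1r, Itgam, Fcgr1, Mertk, Lyz2 and Cd14) passed the level filter under both stimuli, with Lyz2, which encodes lysozyme, the most abundant. The stimuli could be checked as well. Nos2, the inducible nitric oxide synthase of M1 cells, reached 1935 FPKM in untreated WT M1, whereas Nos2, Il12b, Cxcl9 and Cxcl10 stayed under 1 FPKM in every M2 library. Mrc1, which encodes the mannose receptor and is a marker of M2 cells singled out after its values were seen, averaged 306 FPKM in untreated WT M2 and 11.8 FPKM in untreated WT M1.

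Expression of the 10 genes differed widely under the M1 stimulus without DA. In WT M1 the most abundant was Il1rn at 1790.1 ± 48.9 FPKM (mean ± SD, n = 3, as for all groups), followed by Tnfrsf1b at 449 ± 4.01 FPKM and Tnfrsf1a at 136 ± 3.54 FPKM. Tnf and Il1a stood close together at 105 ± 1.97 and 105 ± 2.17 FPKM, above Il10ra, the ligand-binding chain of the IL-10 receptor, at 75.4 ± 1.24 FPKM. Il6 at 22 ± 0.391 FPKM, Il10 at 11.7 ± 0.846 FPKM and Osm at 6.33 ± 0.114 FPKM were lower, and Lif stayed under 1 FPKM in all 12 M1 libraries. In M2, Il6 (0 to 0.18 FPKM) and Il1a (0.25 to 0.97 FPKM) stayed under 1 FPKM in all 12 libraries, and Lif reached 1 FPKM in only 2 of them. The filter for testing asked for 1 FPKM or more in 3 or more libraries out of the 12 per stimulus, which left 9 of the 10 genes in M1 and 7 of the 10 in M2.

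**Figure D1:**
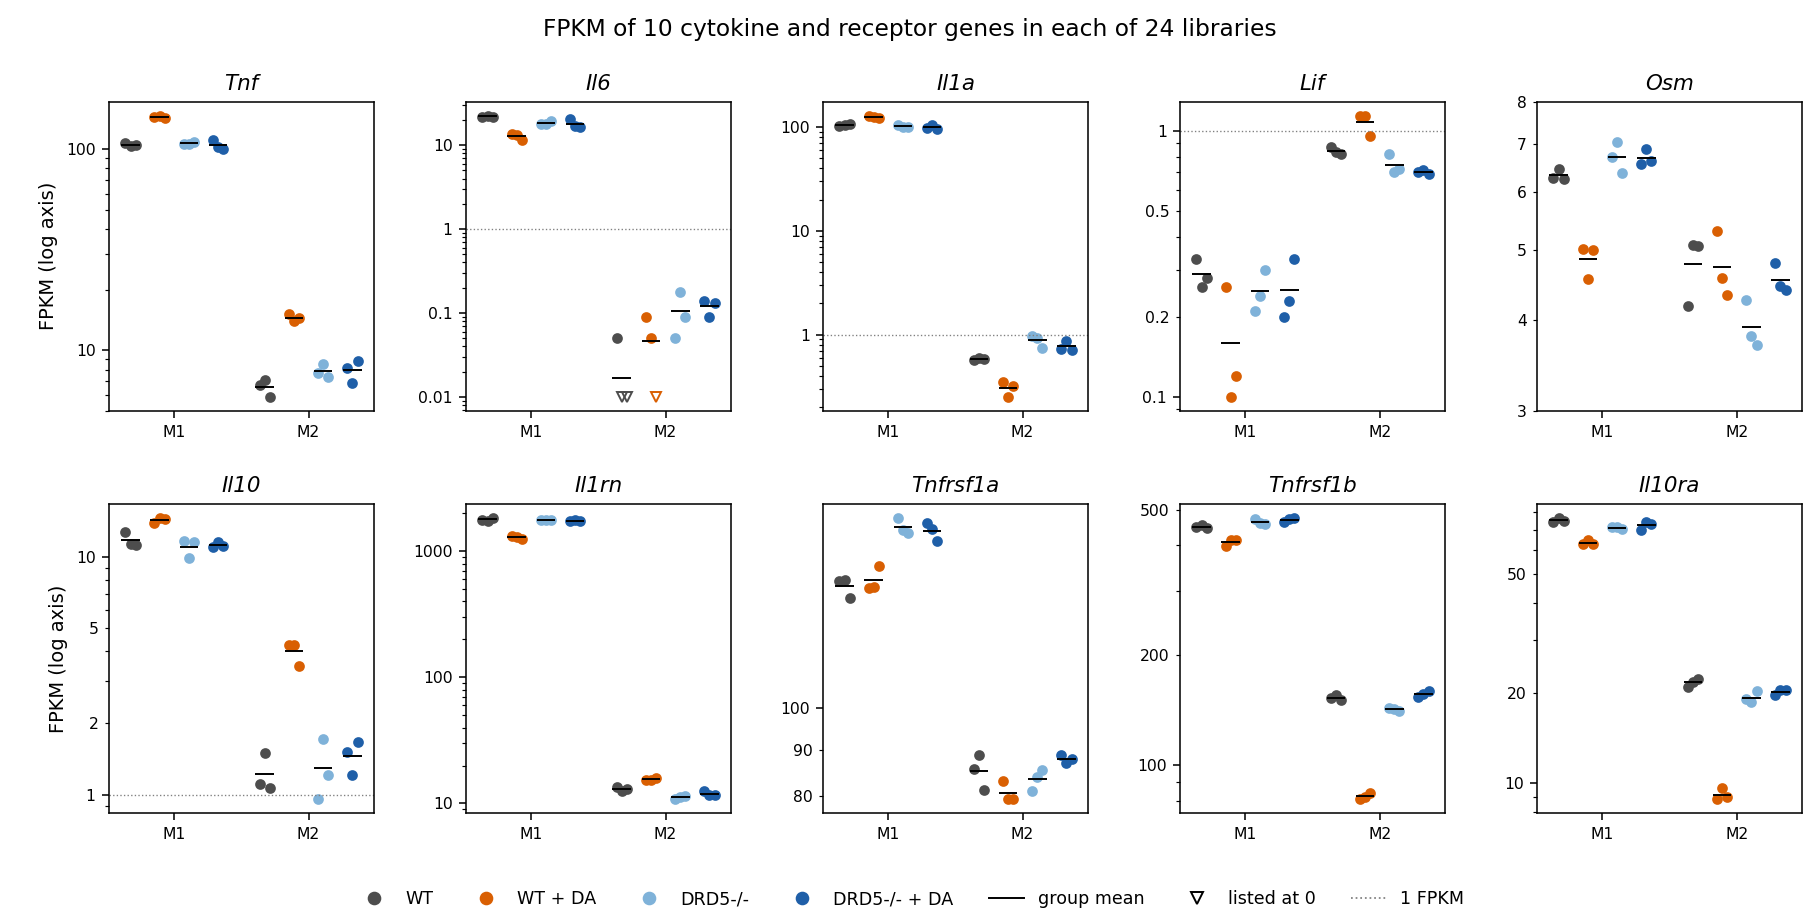
Level of each of the 10 genes in FPKM (vertical log axes) in every library, by genotype, stimulus and DA, with points for libraries, lines for group means and open triangles for values listed at 0. In M1 the DA-treated WT libraries stand above the other 3 groups for Tnf, Il1a and Il10 and under them for Il6, Osm, Il1rn, Tnfrsf1b and Il10ra. Genes under 1 FPKM were not tested.

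Tests used limma on log2(FPKM + 1) of all genes that passed the filter, with Benjamini-Hochberg adjustment over all of them. A gene counts as changed at an adjusted p under 0.001 and at least 1.2-fold on that scale, the threshold named in the methods of the study. Adding 1 to FPKM makes fold changes of low genes such as Il10 in M2 smaller than the ratio of their FPKM. In M1, DA changed 4 of 9 tested genes in WT: Tnf rose, and Il6, Il1rn and Osm fell, where 14.3% of all 10040 tested genes passed. DA changed 0 of 9 in DRD5-/- M1 by limma, where 0.0% of all genes passed, and 0 of the 9, against 569 of all genes, had an unadjusted p under 0.05. Without DA, 0 of 9 differed between DRD5-/- and WT M1 by limma, against 0.936% of all genes, and 3 of the 9, against 2557 of all 10040, had an unadjusted p under 0.05. With DA, 6 of 9 differed between WT and DRD5-/- M1, against 18.5% of all genes: Tnf, Il1a and Il10 were higher in WT, and Il6, Il1rn and Osm lower. The DA effect itself differed between WT and DRD5-/- M1 for 5 of 9 (Tnf, Il1a, Il6, Il1rn and Il10ra), against 8.38% of all genes. Of the 1439 genes changed by DA in WT M1, 33.0% were higher, a share that became 56.0% of 1214 genes once the libraries were scaled by median of ratios. The same scaling took the share higher in WT among genes that differed with DA from 32.1 to 52.3%, and the share of positive differences in DA effect from 38.2 to 63.5%.

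In M2, DA changed 4 of 7 tested genes in WT: Tnf and Il10 rose, and Il10ra and Tnfrsf1b fell, where 46.3% of all 10735 tested genes passed. DA changed 0 of 7 in DRD5-/- M2 by limma, against 4.02% of all genes, with 3 of the 7, against 4570 of all 10735, at an unadjusted p under 0.05. Without DA, 0 of 7 differed between DRD5-/- and WT M2 by limma, against 5.51% of all genes, with 5 of the 7, against 4021 of all 10735, at an unadjusted p under 0.05. With DA, 5 of 7 differed between WT and DRD5-/- M2, against 49.7% of all genes: Tnf, Il10 and Il1rn were higher in WT, and Il10ra and Tnfrsf1b lower. The DA effect differed between the genotypes for 4 of 7 (Tnf, Il10, Il10ra and Tnfrsf1b), against 43.2% of all genes. Counts of 4 or 5 of 7 genes stand near the share of all genes in M2 and are no result about these genes. Of the genes changed by DA in DRD5-/- M2, 83.8% were higher and 73.3% after median-of-ratios scaling, and of those that differed between untreated DRD5-/- and WT M2 the share higher went from 24.8 to 37.7%.

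**Figure D2:**
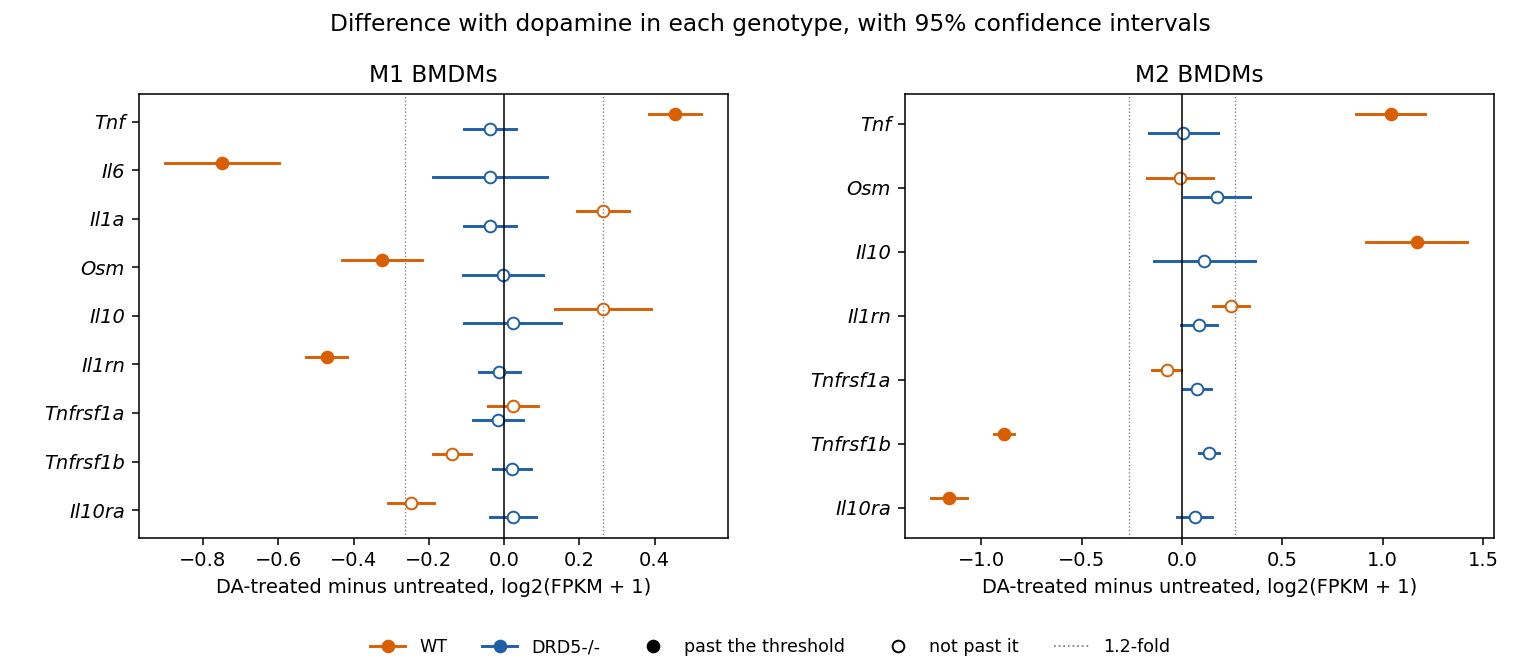
Log2 fold change with DA (horizontal axis, on log2(FPKM + 1), with 95% CI as bars) of each tested gene in WT and DRD5-/- cells, M1 and M2 apart, with filled points past the threshold and dotted lines at 1.2-fold. In DRD5-/- M1 all 9 values lie within 0.04 of 0, while in WT they run from −0.75 for Il6 to 0.45 for Tnf. In WT M2 they run from −1.16 for Il10ra to 1.17 for Il10.

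Markers of other cell types moved with some of these groups. In M1 the 5 neutrophil markers, of which 2 were tested, summed to 32.9, 40.9 and 42.5 FPKM in the WT libraries and 64, 53.3 and 53.3 FPKM in those with DA. They summed to 14.3, 18 and 15.3 FPKM in DRD5-/- M1 and 18.4, 17.2 and 19.8 FPKM in DRD5-/- M1 with DA. S100a8, which encodes a calcium-binding protein of neutrophils and monocytes, was the most abundant, while Mpo and Elane, which encode granule enzymes of neutrophil precursors, stayed under 0.1 FPKM and Ly6g under 1 FPKM. Of the 2 tested, S100a8 rose with DA in WT M1 and S100a9 (0.08) did not pass. Both tested markers (S100a8 and S100a9) were lower in untreated DRD5-/- than in WT, S100a9 at 0.54 against 13.6 FPKM (−3.24). In that comparison the call of S100a8 was lost with no level filter and without WT M1 replicate 3 (−0.65). The 4 dendritic cell markers, with Ccr7 the most abundant, summed to 40.3, 38.1 and 39.9 FPKM in WT M1 and 21.9, 22.3 and 21.4 FPKM with DA. The sums were 40.4, 41.5 and 41.6 FPKM in DRD5-/- M1 and 43, 39.8 and 41.5 FPKM with DA. Both tested dendritic cell markers (Ccr7 and Xcr1) fell with DA in WT, and Flt3 and Zbtb46, which mark dendritic cells more strictly, stayed under 1 FPKM. The call of Xcr1 was lost after median-of-ratios scaling (−0.43), with no level filter, with the compared groups alone, and without any single one of WT M1 replicates 1, 2 and 3, WT M1 with DA replicates 1, 2 and 3, DRD5-/- M1 replicate 3 and DRD5-/- M1 with DA replicates 1 and 2 (−0.52 to −0.37). Macrophage marker sums averaged 7534 FPKM in WT M1 and 8215 with DA, and 7519.6 and 7482 FPKM in DRD5-/- M1 without and with DA. Of the 8 macrophage markers, 1 (Csf1r) was higher with DA in WT M1, where 14.3% of all genes passed. The part of these markers in the M1 results was not tested, and in bulk RNA fewer cells of a type and less RNA per cell cannot be told apart.

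Among the markers of the stimuli, 2 of 6 M1 markers (Il12b and Cd86) fell with DA in WT M1, where 14.3% of all genes passed. The call of Cd86 was lost after median-of-ratios scaling (−0.25). Il12b, which encodes a subunit of IL-12, went from 20.1 to 4.51 FPKM. The M2 marker Mrc1 rose with DA in WT under both stimuli, from 11.8 to 18.8 FPKM in M1 and from 306 to 537 FPKM in M2. The M2 markers did not move together: in WT M2, 3 of the 5 rose with DA and 1 fell, where 46.3% of all genes passed. Chil3 rose from 44.8 to 61.2 FPKM, Retnla fell from 104 to 29.3 FPKM (−1.79), and Clec10a (−0.13) did not pass. In WT M2, where 46.3% of all 10735 tested genes passed with DA, macrophage markers themselves moved. DA lowered 4 of the 8 markers (Csf1r, Mertk, Lyz2 and Cd14) and raised 1 (Itgam). Their sum was 10719, 10889.8 and 10787 FPKM in WT M2, 8361, 8349 and 8388 FPKM with DA, 10899, 10955 and 10911 FPKM in DRD5-/- M2 and 10843, 11297 and 11218 FPKM in DRD5-/- M2 with DA. The 4 fibroblast markers, with Col1a2 the most abundant, summed to 51.5, 50.8 and 50.2 FPKM in WT M2 and 60.9, 59.7 and 57.9 FPKM with DA, and all 4 were lower in untreated DRD5-/- at 36.9, 36.3 and 37.6 FPKM (36.5, 37.3 and 38.1 FPKM with DA). With DA in WT M2, Col1a1 (0.29) and Col3a1 (0.30) rose, Pdgfra fell from 3.39 to 1.47 FPKM (−0.83), and Col1a2 (0.26) did not pass. The calls of Col1a1 (0.25) and Col3a1 (0.26) were lost after median-of-ratios scaling, and that of Col1a1 also without WT M2 replicate 3 (0.25) or WT M2 with DA replicate 1 (0.25). Of the 4 epithelial markers Epcam, Krt8 and Krt18 stayed under 0.1 FPKM, and the sum is Cdh1, which encodes E-cadherin. That sum was 2.24, 2.18 and 2.22 FPKM in WT M2, 17, 16.8 and 17.2 FPKM with DA, 1.09, 1.16 and 1.09 FPKM in DRD5-/- M2 and 1, 1.05 and 1.4 FPKM in DRD5-/- M2 with DA. The 3 T cell markers listed for M2, mostly Cd4, with Cd3d and Cd8a under 1 FPKM, summed to 4.13, 3.88 and 4.41 FPKM in WT M2, 2.2, 2.42 and 2.68 FPKM with DA, 6.5, 6.52 and 6.66 FPKM in DRD5-/- M2 and 5.74, 5.5 and 5.25 FPKM in DRD5-/- M2 with DA. B cell markers summed to at most 0.42 FPKM and the 1 listed mast cell marker (Cpa3) to at most 0.27 FPKM in any of the 24 libraries. The part of these markers in the M2 results was not tested.

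Tnf, which encodes the early cytokine TNF, lies at chr17:35199367-35202007 on the minus strand in RefSeq of GRCm38.p6 (gene ID 21926), between the lymphotoxin genes Lta (1157 bases away) and Ltb (3061 bases away). Il6, which encodes the gp130 cytokine IL-6, lies at chr5:30013114-30019975 on the plus strand (gene ID 16193) and overlaps A230098N10Rik, whose reads cannot be told apart from those of Il6 since the strand of counting is not stated. The promoters of both genes are shown because DA moved the genes in opposite directions in WT M1. RefSeq promoters, 250 bases before to 50 after the start, were matched for 7 of the 10 genes, none for Il10, Il10ra and Osm. Capitals mark matches on either strand to any of 5 motifs, given with the share of 32851 promoters that hold them: the CRE half-site TGACG (20.8%), the AP-1 site TGANTCA (7.81%), the NF-κB site (8.46%), the STAT site TTCNNNGAA (8.30%) and the TATA box TATAAA (13.6%). The Tnf promoter spans chr17:35201958-35202257 on the minus strand and the Il6 promoter chr5:30012864-30013163 on the plus strand.
Tnf promoter: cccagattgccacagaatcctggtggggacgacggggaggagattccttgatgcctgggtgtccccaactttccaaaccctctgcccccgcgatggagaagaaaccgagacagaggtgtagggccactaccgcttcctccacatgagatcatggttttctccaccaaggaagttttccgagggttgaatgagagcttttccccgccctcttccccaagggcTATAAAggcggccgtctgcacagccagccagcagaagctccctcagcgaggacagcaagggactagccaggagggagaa
Il6 promoter: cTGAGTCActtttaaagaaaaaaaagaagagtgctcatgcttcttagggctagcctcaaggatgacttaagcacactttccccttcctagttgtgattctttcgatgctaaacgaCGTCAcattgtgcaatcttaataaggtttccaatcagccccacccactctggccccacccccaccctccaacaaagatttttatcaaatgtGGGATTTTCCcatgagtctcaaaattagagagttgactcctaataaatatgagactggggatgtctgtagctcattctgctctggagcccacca
The Tnf window holds a TATA box at −29. The Il6 window holds an AP-1 site at −249, a CRE half-site on the opposite strand at −135 and an NF-κB site at −44. A match describes letters in the sequence only, and no binding was measured.

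In M1, Tnf stood at 107, 103 and 105 FPKM in the 3 WT libraries and at 144, 146 and 143 FPKM in the 3 with DA. In DRD5-/- M1 it stood at 107, 106 and 108 FPKM without DA and 110.3, 103 and 100.3 FPKM with DA. Every DA-treated WT library lay above all 9 other M1 libraries, and the other 3 M1 groups overlapped. Tnf rose with DA in WT M1 by a log2 fold change of 0.45 (95% CI 0.39 to 0.52, limma adjusted p = 4.54e-08), higher in 3 of 3 libraries. In DRD5-/- M1 the value was −0.04 (95% CI −0.11 to 0.03), and the difference between the DA effects was 0.49 (adjusted p = 1.94e-06). In M2, Tnf was lower: 6.74, 7.09 and 5.85 FPKM in WT, 15.1, 14 and 14.4 FPKM in WT with DA, 7.71, 8.52 and 7.36 FPKM in DRD5-/- and 8.1, 6.85 and 8.83 FPKM in DRD5-/- with DA. Again the 3 DA-treated WT libraries lay above all other M2 libraries. Tnf rose in WT M2 by 1.04 (95% CI 0.87 to 1.21, adjusted p = 3.03e-08), against 0.01 (95% CI −0.17 to 0.18) in DRD5-/-, a difference of 1.03 (adjusted p = 1.93e-06). By level, Tnf ranked WT M1 with DA first, then DRD5-/- M1, WT M1 and DRD5-/- M1 with DA without a gap, then, after a gap, WT M2 with DA, then, after another gap, DRD5-/- M2 with DA and DRD5-/- M2, which overlapped, and WT M2 last. Untreated WT and DRD5-/- M2 did not overlap, yet their difference of 0.23 (95% CI 0.06 to 0.40, adjusted p = 0.0482) did not pass.

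Il6 stood at 21.9, 22.4 and 21.7 FPKM in WT M1 and at 13.6, 13.1 and 11.5 FPKM in WT M1 with DA. It stood at 17.9, 18.1 and 19.4 FPKM in DRD5-/- M1 and 20.6, 17.1 and 16.5 FPKM in DRD5-/- M1 with DA. All 3 DA-treated WT libraries were lower than every other M1 library, and the 3 untreated WT libraries were the highest, while both DRD5-/- groups lay between them and overlapped. Il6 fell by 0.75 on the log2 scale with DA in WT (95% CI −0.90 to −0.60, adjusted p = 9.03e-07), lower in 3 of 3 libraries. In DRD5-/- M1 the change was −0.04 (95% CI −0.19 to 0.11), and the DA effects differed by −0.71 (adjusted p = 9.55e-05), a call that ended when no level filter was used. The untreated genotypes were apart by −0.24 (95% CI −0.39 to −0.09, adjusted p = 0.0428), which did not pass, although no DRD5-/- library reached the lowest WT library. With DA, WT was lower than DRD5-/- by −0.47 (adjusted p = 6.62e-05). In M2 the 12 libraries held Il6 at 0 to 0.18 FPKM. A single fragment of Il6 amounts to about 0.049 FPKM at the estimated depth, so the M2 values rest on a few fragments each. The ratio of Il6 to Tnf within a library, in FPKM, was 0.209 ± 0.00696 in WT M1 and 0.088 ± 0.00698 with DA, and was 0.172 ± 0.00578 and 0.173 ± 0.0121 in DRD5-/- M1 without and with DA.

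Il1a, which encodes the alarm cytokine IL-1α, lies at chr2:129299609-129310186 on the minus strand (gene ID 16175), 54382 bases from Il1b, and Gm14023 overlaps it on the other strand. Its M1 levels were 102, 105 and 107 FPKM in WT, 129, 125 and 124 FPKM in WT with DA, 105, 99.9 and 102 FPKM in DRD5-/- and 97.8, 104 and 96.6 FPKM in DRD5-/- with DA. The DA-treated WT libraries were the 3 highest of 12, and the other 3 groups overlapped. The change with DA in WT M1 was 0.26 (95% CI 0.19 to 0.33, adjusted p = 1.49e-05), higher in 3 of 3 libraries, and stood just under 1.2-fold. It passed with a pseudocount of 0.1 (0.27), after median-of-ratios scaling (0.34), and without WT M1 replicate 2 (0.26) or 3 (0.28) or WT M1 with DA replicate 2 (0.27) or 3 (0.28). In DRD5-/- M1 the value was −0.04 (95% CI −0.11 to 0.03). The DA effects differed by 0.30 (adjusted p = 0.000225), a call lost with no level filter and without WT M1 replicate 1 (0.29). With DA, WT was higher than DRD5-/- by 0.34 (adjusted p = 9.42e-07). In M2, Il1a stayed under 1 FPKM: 0.57, 0.6 and 0.58 FPKM in WT, 0.35, 0.25 and 0.32 FPKM in WT with DA, 0.97, 0.92 and 0.74 FPKM in DRD5-/- and 0.73, 0.86 and 0.71 FPKM in DRD5-/- with DA. At this low level DA-treated WT libraries were again apart from all others, here as the lowest. Fitted with no level filter, the M2 values were −0.28 with DA in WT (adjusted p = 0.00085) and −0.43 for WT against DRD5-/- with DA (adjusted p = 2.43e-05).

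Osm and Lif, whose products oncostatin M and LIF signal through gp130 like IL-6, are neighbours, with Osm at chr11:4236785-4241026 on the plus strand (gene ID 18413) and Lif at chr11:4257568-4272514 on the plus strand (gene ID 16878), and 16541 bases and 0 genes lie between them. Osm stood at 6.28, 6.46 and 6.25 FPKM in WT M1, 5.01, 4.56 and 5 FPKM with DA, 6.71, 7.05 and 6.39 FPKM in DRD5-/- M1 and 6.57, 6.89 and 6.62 FPKM in DRD5-/- M1 with DA. All 3 DA-treated WT libraries were the lowest of the 12. Osm fell with DA in WT M1 by 0.32 on the log2 scale (95% CI −0.43 to −0.22, adjusted p = 9.86e-05), lower in 3 of 3 libraries, a call lost after median-of-ratios scaling (−0.26). In DRD5-/- M1 the value was 0.00 (95% CI −0.11 to 0.10), and the difference of the DA effects, −0.32 (95% CI −0.47 to −0.17, adjusted p = 0.00323), did not pass. With DA, WT was lower than DRD5-/- by −0.39 (adjusted p = 1.24e-05). In M2, Osm stood at 4.19, 5.08 and 5.06 FPKM in WT, 5.3, 4.57 and 4.33 FPKM with DA, 4.26, 3.8 and 3.7 FPKM in DRD5-/- and 4.79, 4.46 and 4.4 FPKM in DRD5-/- with DA. The WT groups overlapped, with a change of −0.01 (95% CI −0.17 to 0.15), and in DRD5-/- the change was 0.17 (95% CI 0.01 to 0.34). Osm was also the cytokine gene whose M1 and M2 levels were closest. Lif stood at 0.26 to 0.33 FPKM in WT M1, 0.1 to 0.26 FPKM with DA, 0.21 to 0.3 FPKM in DRD5-/- M1 and 0.2 to 0.33 FPKM in DRD5-/- M1 with DA. In M2 it stood at 0.87, 0.83 and 0.82 FPKM in WT, 1.14, 1.14 and 0.96 FPKM with DA, 0.82, 0.7 and 0.72 FPKM in DRD5-/- and 0.7, 0.71 and 0.69 FPKM in DRD5-/- with DA. Fitted with no level filter, Lif in M2 gave 0.18 with DA in WT (adjusted p = 0.00565) and 0.29 for WT against DRD5-/- with DA (adjusted p = 0.000159).

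Il10, which encodes the cytokine that restrains macrophage activation, lies at chr1:131019845-131024970 on the plus strand (gene ID 16153), beside Mapkapk2 (28729 bases) and in 1 cluster with Il19 (74387 bases), Il20 (108548 bases) and Il24 (132433 bases). In M1 it stood at 12.7, 11.3 and 11.2 FPKM in WT, 13.8, 14.6 and 14.4 FPKM with DA, 11.6, 9.89 and 11.6 FPKM in DRD5-/- and 10.9, 11.5 and 11.1 FPKM in DRD5-/- with DA. The DA-treated WT libraries were the 3 highest of 12 and the other groups overlapped. Their change, 0.26 (95% CI 0.14 to 0.39, adjusted p = 0.0024), higher in 3 of 3 libraries, did not pass, and passed after median-of-ratios scaling (0.33). With DA, Il10 was higher in WT than in DRD5-/- M1 by 0.32 (adjusted p = 0.000391). That call was lost with no level filter, and also without any single one of WT M1 with DA replicates 1, 2 and 3 and DRD5-/- M1 with DA replicates 1, 2 and 3 (0.31 to 0.35). The difference of the DA effects in M1, 0.24 (95% CI 0.06 to 0.42, adjusted p = 0.0442), did not pass. In M2, Il10 stood at 1.11, 1.5 and 1.07 FPKM in WT and 4.27, 4.24 and 3.49 FPKM in WT with DA. It stood at 0.96, 1.71 and 1.21 FPKM in DRD5-/- M2 and 1.51, 1.21 and 1.66 FPKM in DRD5-/- M2 with DA. Every DA-treated WT library was above 3 FPKM and every other M2 library under 2 FPKM. Il10 rose with DA in WT M2 by 1.17 (95% CI 0.92 to 1.42, adjusted p = 5.07e-07), higher in 3 of 3 libraries, the largest log2 rise with DA among those of the 10 genes tested, under either stimulus. In DRD5-/- M2 the value was 0.11 (95% CI −0.14 to 0.36), and the DA effects differed by 1.06 (adjusted p = 6.05e-05). The ratio of Tnf to Il10 within a library was 8.99 ± 0.491 in WT M1 and 10.1 ± 0.281 with DA, and 5.42 ± 0.674 in WT M2 and 3.66 ± 0.43 with DA. The DA-treated WT libraries had lower ratios than the untreated ones in M2 and higher ratios in M1, where the DRD5-/- libraries overlapped with both.

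Il1rn, which encodes the IL-1 receptor antagonist, lies at chr2:24336860-24351491 on the plus strand (gene ID 16181). Its promoter, at chr2:24336610-24336909 on the plus strand and the first of 3 that RefSeq gives, is shown because Il1rn was the most abundant of the 10 genes in M1 and its level with DA in WT went the other way from that of Il1a. The capitals mark an AP-1 site at −141.
Il1rn promoter: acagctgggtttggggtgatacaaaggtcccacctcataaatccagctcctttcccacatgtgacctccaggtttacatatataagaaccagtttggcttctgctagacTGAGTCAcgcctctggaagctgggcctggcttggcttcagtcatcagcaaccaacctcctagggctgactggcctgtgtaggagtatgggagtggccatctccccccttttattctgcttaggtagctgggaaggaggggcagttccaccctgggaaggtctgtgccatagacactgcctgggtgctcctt
In M1, Il1rn stood at 1782, 1746 and 1842 FPKM in WT and 1313, 1297 and 1263 FPKM in WT with DA. It stood at 1770.1, 1760.1 and 1774 FPKM in DRD5-/- and 1741, 1774 and 1741 FPKM in DRD5-/- with DA. The DA-treated WT libraries were lower than all 9 others, and the other 3 groups overlapped. Il1rn fell with DA in WT M1 by 0.47 on the log2 scale (95% CI −0.53 to −0.42, adjusted p = 3.19e-09), lower in 3 of 3 libraries, against −0.01 (95% CI −0.07 to 0.04) in DRD5-/-, a difference of −0.46 (adjusted p = 4.42e-07). In M2 the levels were far lower, at 13.5, 12.4 and 12.9 FPKM in WT, 15.5, 15.2 and 15.9 FPKM in WT with DA, 10.8, 11.3 and 11.5 FPKM in DRD5-/- and 12.6, 11.7 and 11.6 FPKM in DRD5-/- with DA. Here the DA-treated WT libraries were the highest. Their change of 0.24 (95% CI 0.15 to 0.33, adjusted p = 0.000121) stayed under 1.2-fold and passed without WT M2 replicate 1 (0.27). The difference to DRD5-/- with DA did pass, at 0.35 (adjusted p = 3.15e-06).

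The antagonist and the cytokine it opposes stood in different proportion in WT M1. The ratio of Il1rn to Il1a was 17.4, 16.6 and 17.3 in the WT M1 libraries and 10.2, 10.4 and 10.2 in those with DA. It was 16.9, 17.6 and 17.5 in DRD5-/- M1 and 17.8, 17 and 18 in DRD5-/- M1 with DA. WT with DA did not overlap with the other groups, which overlap among themselves. Being taken within a library, these ratios do not change with the scaling of libraries.

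**Figure D3:**
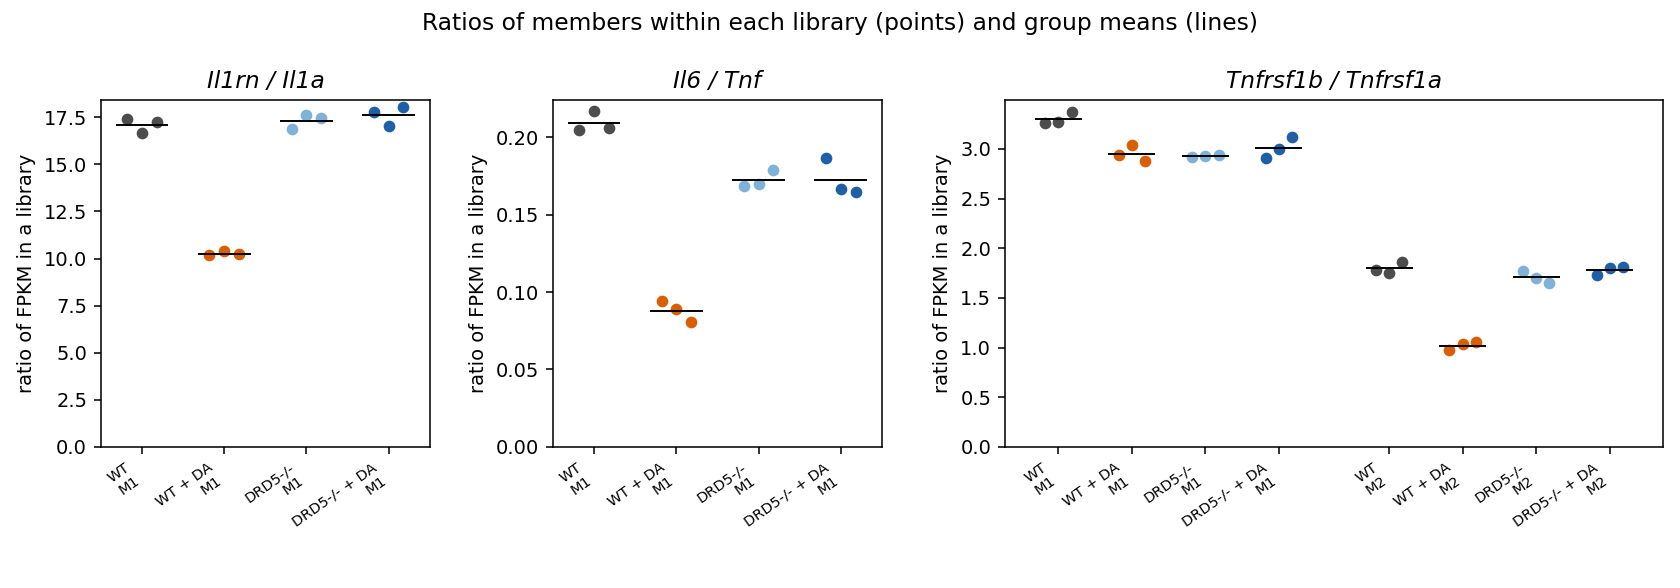
Ratios of FPKM of pairs of the 10 genes within each library (vertical axes), by group, with points for libraries and lines for group means, for M1 and, for the TNF receptor genes, also M2. With DA in WT M1 the ratio of Il1rn to Il1a was 10.3 and of Il6 to Tnf 0.0880, and both lay under every library of the other 3 M1 groups.

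Tnfrsf1a encodes TNFR1, the widely expressed TNF receptor with a death domain, at chr6:125349723-125362483 on the plus strand (gene ID 21937). Tnfrsf1b encodes TNFR2, the inducible receptor of leukocytes, at chr4:145212368-145246870 on the minus strand (gene ID 21938). Their promoters, at chr6:125349473-125349772 on the plus strand and chr4:145246821-145247120 on the minus strand, are set side by side because the receptors bind the same ligand and of them Tnfrsf1b alone fell with DA in WT M2. In both, the capitals mark a STAT site, at −244 and at −181.
Tnfrsf1a promoter: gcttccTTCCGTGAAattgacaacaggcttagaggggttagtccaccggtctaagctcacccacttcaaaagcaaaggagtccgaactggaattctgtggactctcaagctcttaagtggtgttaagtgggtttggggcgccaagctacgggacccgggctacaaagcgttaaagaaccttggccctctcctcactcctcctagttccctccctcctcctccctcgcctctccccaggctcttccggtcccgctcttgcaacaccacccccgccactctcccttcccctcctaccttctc
Tnfrsf1b promoter: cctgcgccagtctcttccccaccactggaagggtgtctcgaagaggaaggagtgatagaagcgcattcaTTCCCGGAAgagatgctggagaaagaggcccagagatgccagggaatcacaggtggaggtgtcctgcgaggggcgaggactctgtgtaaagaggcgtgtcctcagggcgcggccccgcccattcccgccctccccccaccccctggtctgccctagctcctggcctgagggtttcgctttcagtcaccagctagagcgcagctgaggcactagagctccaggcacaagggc
In M2, Tnfrsf1b stood at 153, 156 and 151 FPKM in WT and 80.8, 82.1 and 83.9 FPKM in WT with DA. It stood at 144, 143 and 141 FPKM in DRD5-/- and 154, 157 and 159.6 FPKM in DRD5-/- with DA. All 3 libraries of WT with DA lay far under the rest. Tnfrsf1b fell with DA in WT M2 by 0.89 on the log2 scale (95% CI −0.94 to −0.84, adjusted p = 2.61e-13), lower in 3 of 3 libraries. In DRD5-/- M2 the value was 0.14 (95% CI 0.09 to 0.19, adjusted p = 0.000691), in the opposite direction, higher in 3 of 3 libraries and under 1.2-fold. The DA effects differed by −1.03 (adjusted p = 6.04e-12). In M1, Tnfrsf1b stood at 449, 453 and 445 FPKM in WT, 399, 413 and 413 FPKM with DA, 472, 460.2 and 459 FPKM in DRD5-/- and 465, 472 and 476 FPKM in DRD5-/- with DA. The DA-treated WT libraries were again the lowest, with a change of −0.14 (95% CI −0.19 to −0.09, adjusted p = 0.000254) that stayed under 1.2-fold.

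Tnfrsf1a stood at 138, 138 and 132 FPKM in WT M1, 136, 136 and 143 FPKM with DA, 162, 157 and 156 FPKM in DRD5-/- M1 and 159.6, 157 and 152 FPKM in DRD5-/- M1 with DA. Here the libraries part by genotype and not by DA: both DRD5-/- groups lay above both WT groups. The untreated genotypes were apart by 0.22 (95% CI 0.15 to 0.28, adjusted p = 0.00047), under 1.2-fold, and the change with DA in WT was 0.02 (95% CI −0.04 to 0.09). In M2 it stood at 81.2 to 88.8 FPKM in WT, 79.4 to 83.2 FPKM with DA, 81.1 to 85.6 FPKM in DRD5-/- and 87.1 to 88.8 FPKM in DRD5-/- with DA. The M2 change with DA in WT was −0.08 (95% CI −0.15 to −0.01). The ratio of Tnfrsf1b to Tnfrsf1a was 1.78, 1.76 and 1.86 in WT M2 and 0.971, 1.03 and 1.06 with DA. It was 1.77, 1.7 and 1.65 in DRD5-/- M2 and 1.73, 1.8 and 1.81 with DA, so the DA-treated WT M2 cells alone held both receptor mRNAs at near equal FPKM. In M1 the ratio was 3.3 ± 0.0624 in WT, 2.95 ± 0.0818 with DA, 2.93 ± 0.0141 in DRD5-/- and 3.01 ± 0.105 in DRD5-/- with DA.

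Il10ra, which encodes the chain of the IL-10 receptor that binds IL-10, lies at chr9:45253837-45269149 on the minus strand (gene ID 16154) and overlaps Mir7086 and Gm20612. In M2 it stood at 21, 21.7 and 22.3 FPKM in WT, 8.85, 9.6 and 8.99 FPKM with DA, 19, 18.6 and 20.2 FPKM in DRD5-/- and 19.6, 20.5 and 20.5 FPKM in DRD5-/- with DA. Those of WT with DA lay far under the other 9. Il10ra fell with DA in WT M2 by 1.16 on the log2 scale (95% CI −1.25 to −1.07, adjusted p = 6.35e-12), lower in 3 of 3 libraries, while its ligand gene Il10 rose in the same libraries. In DRD5-/- M2 the value was 0.06 (95% CI −0.03 to 0.15), and the DA effects differed by −1.22 (adjusted p = 3.17e-10). In M1, Il10ra stood at 74.4, 76.8 and 75 FPKM in WT, 62.7, 64.7 and 62.8 FPKM with DA, 71.7, 71.5 and 70.6 FPKM in DRD5-/- and 69.9, 74.2 and 73.2 FPKM in DRD5-/- with DA. WT with DA was the lowest group here too. The change of −0.25 (95% CI −0.31 to −0.19, adjusted p = 7.33e-06) stayed under 1.2-fold, against 0.02 (95% CI −0.04 to 0.08) in DRD5-/-. The difference of the DA effects passed at −0.27 (adjusted p = 0.000177), close to 1.2-fold. That call was lost after median-of-ratios scaling (−0.19), without WT M1 replicate 2 (−0.26), WT M1 with DA replicate 1 (−0.26) or 3 (−0.26), DRD5-/- M1 replicate 3 (−0.26), and DRD5-/- M1 with DA replicate 2 (−0.25) or 3 (−0.26).

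Most of the 10 genes were higher in M1 than in M2 before DA was added. Of the 9 that passed the filter in these libraries, 7 were at least 2-fold higher in M1 with no overlap in WT, where 42.6% of all 10734 genes differed so in either direction (1350 higher in M1, 3220 lower). In DRD5-/- it was also 7 of 9, against 42.3% of all genes (1376 higher in M1, 3147 lower). Il6 and Il1a, under 1 FPKM in every M2 library, passed the filter through M1 libraries alone, which fixed their direction. Their place in these counts, and in those after scaling below, is no result. The M1 level was 179.5 times the M2 level for Il1a in WT and 117 times in DRD5-/-, and 138 and 158 times for Il1rn. Tnf was 16.1 times as high in WT and 13.6 times in DRD5-/-, and Il10 9.57 and 8.53 times. The receptors differed less: the ratio was 3.48 in WT and 3.69 in DRD5-/- for Il10ra, 2.93 and 3.25 for Tnfrsf1b, and 1.6 and 1.89 for Tnfrsf1a. The last, with Osm at 1.33 and 1.71, did not reach 2-fold in either genotype. Il6 has no ratio in WT, since it is listed at 0 in 2 of 3 untreated WT M2 libraries, and in DRD5-/- the ratio was 173, resting on M2 values under 1 FPKM. Lif, under 1 FPKM in these libraries, went the other way, with an M2 level 2.9 times that of M1 in WT. These ratios carry no p-value because the M1 and M2 files list different genes, so stimulus and file set cannot be told apart. Over all genes the median log2 ratio of M1 to M2 was −0.39 in WT and −0.37 in DRD5-/-. After median-of-ratios scaling, Tnfrsf1a reached 2-fold in WT (log2 ratio 1.13) and DRD5-/- (1.35) and Osm in DRD5-/- (1.2) but not in WT (0.86), which makes 8 of 9 genes in WT, against 3982 of all 10734, and 9 of 9 in DRD5-/-, against 4003 of all 10682.

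Whether DA acted alike under both stimuli was tested as the DA effect in WT M1 minus that in WT M2, in which an offset between the files cancels. It differed for 7 of 9 tested genes, Il6 and Il1a among them, against 45.9% of all 11148 genes. The M1 effect was lower than the M2 effect for Il10 (−0.91, adjusted p = 5.42e-06), Il1rn (−0.71), Il6 (−0.79) and Tnf (−0.59). It was higher for Il10ra (0.91), Tnfrsf1b (0.75) and Il1a (0.54). Il1rn had opposite signs under the stimuli, past the threshold in M1 (−0.47) and not in M2 (0.24). For Tnf, Il10, Tnfrsf1b and Il10ra the direction in WT was the same under both stimuli and the M2 effect was the larger. Il6 and Il1a are under 1 FPKM in every M2 library and entered this test through their M1 levels alone. Their M2 effects rest on low levels, so the calls of Il6 and Il1a are no result about the stimuli. The call of Il6 was also lost with a pseudocount of 0.1 (−1.10). Osm, at −0.31 (95% CI −0.50 to −0.12, adjusted p = 0.00458), and Tnfrsf1a, at 0.10 (95% CI 0.01 to 0.20), did not pass. Of all genes with a difference, 38.4% were positive, and 47.7% after median-of-ratios scaling.

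Other genes of these pathways were followed in 5 lists of 91 distinct genes: TNF signalling, the IL-6 family, the IL-1 family, the IL-10 family and decay of cytokine mRNA. The IL-6 and IL-10 lists share Jak1, Tyk2, Stat3, Socs3 and Bcl3. In WT M1, DA changed 17 of 76 tested genes (22.4%, against 14.3% of all genes), 6 higher and 11 lower (6 and 8 after median-of-ratios scaling). In DRD5-/- M1 it changed 0 of 76 by limma, where 0.0% of all genes passed. An unadjusted limma p under 0.05 was held there by 4 of the 76, against 569 of all 10040, a count near that share. The median log2 change over all tested genes in WT M1 was −0.07, and 0.00 after median-of-ratios scaling. Untreated genotypes differed for 1 of 76 list genes (1.32%, against 0.936% of all genes), a count near the share of all genes. That gene is Bcl3, at 0.30, a call lost without DRD5-/- M1 replicate 2 (0.29). With DA, 19 of 76 differed between the genotypes (25%, against 18.5% of all genes), 5 higher in WT and 14 lower (8 and 10 after scaling), and the DA effect differed for 12 (15.8%, against 8.38%), 3 positive and 9 negative (4 and 4 after scaling).

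Of 23 tested genes of the TNF list, 1 rose with DA in WT M1 and 0 fell (4.35%, against 14.3% of all genes). Their median was 0.00 (0.07 after scaling). Ikbkg, which encodes the NEMO subunit of the IκB kinase, rose from 7.88 ± 0.173 to 11.2 ± 0.146 FPKM (0.46), and was 7.19 and 7.36 FPKM in DRD5-/- without and with DA. Of 16 genes of the IL-6 list, 2 rose and 5 fell (43.8%, against 14.3%), with a median of −0.12 (−0.06 after scaling, with 4 lower). Those that fell were Socs3 and Bcl3 and, named after their values were seen, Stat3 (−0.36), Jak2 (−0.35) and Il11ra1 (−0.32), the last a call lost after scaling (−0.25). Socs3, the feedback inhibitor of gp130 signalling, fell from 345 ± 2.53 to 229 ± 4.14 FPKM, against 373 and 368 FPKM in DRD5-/-. Il6st, which encodes gp130, rose from 8.83 ± 0.384 to 12.1 ± 0.159 FPKM, and Clcf1, a cytokine gene of the family, from 1.06 ± 0.14 to 1.99 ± 0.0737 FPKM. Of 15 genes of the IL-1 list, 1 rose and 1 fell (13.3%, against 14.3%), with a median of −0.01 (0.03 after scaling). That count is near the share of all genes and is no result about the list. Il1f9, which encodes IL-36γ, rose from 21.1 ± 0.147 to 27.6 ± 0.918 FPKM, and Traf6, the adaptor of IL-1 and Toll-like receptors, fell from 16.8 ± 0.427 to 13 ± 0.37 FPKM.

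Of 12 tested genes of the IL-10 list, 0 rose and 4 fell with DA in WT M1 (Socs3, Nfil3, Bcl3 and, named after its values were seen, Stat3), with a median of −0.01 (0.06 after scaling). These 4 make 33.3% of the list, against 14.3% of all genes. Nfil3, a transcription factor gene induced by IL-10, fell from 51.1 ± 0.342 to 35.5 ± 1.1 FPKM, against 52.2 and 50.6 FPKM in DRD5-/-. Bcl3, which encodes an IκB-like protein that holds back Tnf transcription, fell from 59.4 ± 2.11 to 45.9 ± 1.48 FPKM. The DA effects on Bcl3 differed by −0.34, a call lost after scaling (−0.27). Of 15 genes of the decay list, 2 rose and 4 fell (40%, against 14.3%), with a median of −0.07. After scaling 2 rose and 2 fell, with a median of 0.00. Zfp36, which encodes tristetraprolin, a protein that binds AU-rich elements of Tnf mRNA and leads it to decay, fell from 374 ± 8.33 to 294 ± 11.7 FPKM (−0.35), against 434 and 438 FPKM in DRD5-/-. The DA effects on Zfp36 differed by −0.36, a call lost with no level filter and after scaling (−0.28). Elavl1, which encodes the stabilising protein HuR, fell from 6.35 ± 0.135 to 4.86 ± 0.149 FPKM. Zc3h12c, a gene of the Regnase family of RNases, rose from 7.87 ± 0.0985 to 10.3 ± 0.197 FPKM (0.35), a call lost with no level filter and without any single one of WT M1 replicates 1, 2 and 3 and WT M1 with DA replicates 1, 2 and 3 (0.33 to 0.36). The others, named after their values were seen, are Zfp36l2 (0.30), which rose, and Dusp1 (−0.30) and Khsrp (−0.27), which fell. The calls of Dusp1 (−0.22) and Khsrp (−0.20) were lost after scaling, and that of Khsrp also without WT M1 replicate 1 (−0.26) or WT M1 with DA replicate 1 (−0.25).

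In WT M2, DA changed 43 of 75 tested list genes (57.3%, against 46.3% of all genes), 13 higher and 30 lower (9 and 32 after scaling), while over all genes tested the median log2 change was 0.03 and 56.0% of the changed genes were higher (50.1% after scaling). In DRD5-/- M2 it changed 7 of 75 (9.33%, against 4.02%), 6 higher and 1 lower (4 and 1 after scaling). Untreated genotypes differed for 9 (12%, against 5.51%), 2 higher in DRD5-/- (Tnfrsf21 at 0.64 and Il11ra1 at 0.35, named after their values were seen) and 7 lower (3 and 6 after scaling). With DA, 45 differed between the genotypes (60%, against 49.7%), 15 higher in WT and 30 lower (9 and 36 after scaling), and the DA effect differed for 42 (56%, against 43.2%), 9 positive and 33 negative (7 and 36 after scaling). Of 22 genes of the TNF list, 3 rose and 11 fell (2 and 12 after scaling), with a median of −0.29. The changed genes make 63.6% of the list, against 46.3% of all genes. Traf1, an adaptor of TNFR2, fell from 4.42 ± 0.409 to 1.53 ± 0.236 FPKM, and stood at 2.56 and 2.5 FPKM in DRD5-/- without and with DA. Rhbdf2, which encodes iRhom2, the partner that the TNF-releasing protease ADAM17 needs, fell from 31.2 ± 0.269 to 15.7 ± 0.473 FPKM, and stood at 29.3 and 31 FPKM in DRD5-/- without and with DA. Ikbkg rose from 6.67 ± 0.186 to 14.7 ± 0.33 FPKM, and it rose in DRD5-/- too, from 6.3 to 11.9 FPKM (0.82). Its DA effects differed by 0.21 (adjusted p = 0.00289), which did not pass. Named after their values were seen, Tnfaip3 (0.49) and Fadd (0.30) rose in WT, and the call of Fadd was lost with no level filter, with the compared groups alone, after scaling (0.26), and without WT M2 replicate 2 (0.31) or 3 (0.23) or WT M2 with DA replicate 1 (0.29) or 2 (0.26). Of 17 genes of the IL-6 list, 1 rose and 8 fell (52.9%, against 46.3%), a count near the share of all genes, with a median of −0.25. Pim1, a kinase gene that STAT3 induces, fell from 57.6 ± 1.29 to 18.3 ± 0.616 FPKM, and stood at 53 and 56.4 FPKM in DRD5-/- without and with DA. Stat3, the transcription factor of IL-6 and IL-10 signalling, fell from 41.4 ± 1.89 to 22.7 ± 0.102 FPKM, and stood at 35.8 and 38 FPKM in DRD5-/- without and with DA. Bcl3 fell from 12.3 ± 1.28 to 5.71 ± 0.924 FPKM.

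Of 15 tested genes of the IL-1 list, 3 rose and 6 fell with DA in WT M2 (2 and 6 after scaling), with a median of −0.15. The changed genes make 60% of the list, against 46.3% of all genes. Il1b, the gene of the inflammasome-dependent cytokine IL-1β, fell from 2.81 ± 0.193 to 0.11 ± 0 FPKM, and stood at 2.15 and 1.84 FPKM in DRD5-/- without and with DA. Il1rap, the accessory chain gene of the IL-1 receptor, rose from 3.79 ± 0.0635 to 11.7 ± 0.432 FPKM, and Il1r1, the gene of the chain that binds IL-1, fell from 5.23 ± 0.0321 to 3.12 ± 0.21 FPKM. Il1r1 stood at 2.93 and 3.56 FPKM in DRD5-/- without and with DA. Il18bp (0.42) and Il1rl1 (0.30), named after their values were seen, rose as well. The call of Il18bp was lost with no level filter and without WT M2 replicate 2 (0.37) or WT M2 with DA replicate 1 (0.39) or 3 (0.43), and that of Il1rl1 with no level filter, after scaling (0.26), and without WT M2 replicate 1 (0.26) or 2 (0.31) or WT M2 with DA replicate 1 (0.26), 2 (0.33) or 3 (0.31). Of 11 genes of the IL-10 list, 1 rose and 4 fell (1 and 5 after scaling), with a median of −0.18. That is 45.5% of the list, near the 46.3% of all genes, and is no result about the list. The gene that rose is Maf, a transcription factor gene known to drive Il10, from 21.9 ± 0.751 to 53.2 ± 2.26 FPKM, at 25.7 and 28.5 FPKM in DRD5-/- without and with DA. Maf and Il10 rose in the same libraries, where 46.3% of all genes changed, and a link between the 2 genes was not tested. Nfkbiz, which encodes IκBζ, a nuclear partner of NF-κB at the Il6 gene, fell from 2.58 ± 0.0436 to 0.72 ± 0.0557 FPKM. Bcl3, Stat3 and, named after its values were seen, Nfil3 (−0.77) fell as well. Of 15 genes of the decay list, 5 rose and 3 fell (3 and 3 after scaling), with a median of 0.13. That is 53.3% of the list, near the 46.3% of all genes. Hnrnpd, which encodes the AU-rich element binding protein AUF1, rose from 14.8 ± 0.206 to 23.9 ± 0.369 FPKM, Elavl1 rose from 12.1 ± 0.656 to 17.4 ± 0.47 FPKM, and Zfp36l2, a relative of Zfp36, fell from 93.5 ± 2.82 to 62.3 ± 2.2 FPKM. Elavl1 was thus lower with DA in WT M1 and higher in WT M2. Named after their values were seen, Dusp1 (0.33), Zfp36l1 (0.30) and Tial1 (0.29) rose and Zc3h12c (−0.39) and Rc3h1 (−0.39) fell, with the calls of Zfp36l1 (0.26) and Tial1 (0.25) lost after scaling and that of Tial1 also without WT M2 replicate 1 (0.26). The 7 list genes that DA changed in DRD5-/- M2 include Ikbkg (0.82) and Il6ra (0.36), the gene of the IL-6 receptor chain, which rose, and Il11ra1 (−0.32), which fell, named after their values were seen. The call of Il6ra was lost with no level filter, with the compared groups alone, and without any single one of DRD5-/- M2 replicates 1, 2 and 3 and DRD5-/- M2 with DA replicates 1 and 3 (0.30 to 0.36).

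**Figure D4:**
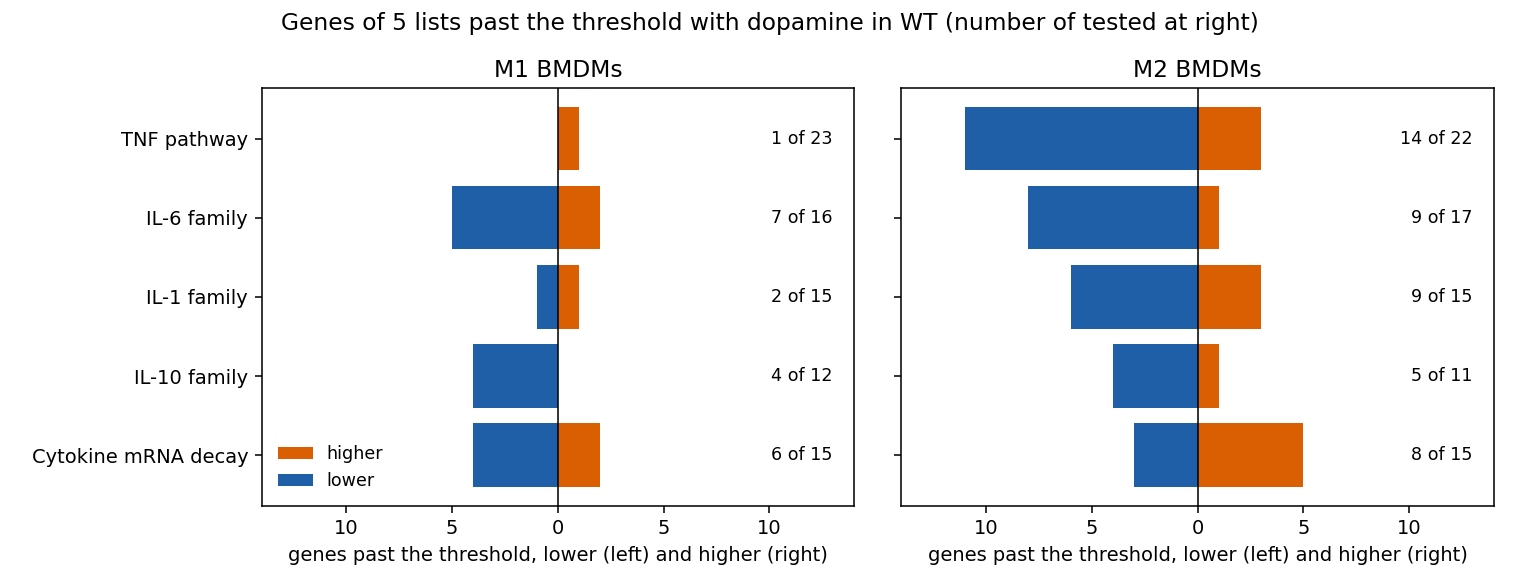
Number of genes of the 5 lists past the threshold with DA in WT (horizontal axis, genes lower to the left and higher to the right), M1 and M2 apart, with the number called of the number tested at the right. In M2 more genes were lower than higher in the TNF, IL-6, IL-1 and IL-10 lists (11, 8, 6 and 4 genes lower), and 3 were lower against 5 higher in the decay list, which became 3 and 3 after median-of-ratios scaling. Of all tested genes, 14.3% passed in M1 and 46.3% in M2.

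For Tnf, Il6, Il10 and Il1rn, the 4 genes with the most similar pattern over the 12 libraries of a stimulus were taken by Pearson's r of log2(FPKM + 1), as a description without a test, since the 12 libraries fall into 4 groups. In M1 these were Lilra6 (0.999), Alox5ap (0.992), Tfec (0.992) and C5ar1 (0.992) for Tnf. Alox5ap encodes the protein that presents arachidonic acid to 5-lipoxygenase, and C5ar1 the receptor for complement C5a. For Il6 in M1 they were Rpl3 (0.982), LOC105244208 (0.973), Igbp1 (0.972) and Psmc2 (0.971), of which Rpl3 is a ribosomal protein gene and Psmc2 a proteasome gene. For Il10 in M1 they were Ets2 (0.964), Syne1 (0.957), Tmed10 (0.955) and Grk5 (0.950). For Il1rn in M1 they included Gatm (0.996), Lcp1 (0.996) and Cd83 (0.995), of which Gatm is an enzyme gene of creatine synthesis and Cd83 a surface marker gene of activated antigen-presenting cells. In M2 they were B430306N03Rik (0.989), Raver1 (0.980), Ctdspl (0.976) and Igfbp4 (0.976) for Tnf, and Ttf2 (0.976), Rcl1 (0.976), Parp1 (0.975) and Mcu (0.973) for Il10. For Il1rn in M2 they were Mtrex (0.980), Nudcd1 (0.977), Ms4a4a (0.976) and Skil (0.975).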

How the data were processed

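RNA sequencing measured gene expression in 24 BMDM libraries, 12 per stimulus, on a BGISEQ-500. The deposited values are FPKM that the authors made. The methods of the study name HISAT2 and GRCm38.p5, and the submitters' processing notes Bowtie2 2.2.5 and GRCm38.p6. The counter and annotation are not given in the sources used here. The files list 18063 genes for M1 and 17786 for M2, 17109 of them in both, and 0 pairs of libraries are identical.

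Genes with at least 1 FPKM in at least 3 of 12 libraries were fitted with limma 3.58.1 in R 4.3.3 on log2(FPKM + 1), with a trended prior and 1 mean per group, for each stimulus apart. The difference of the DA effect between stimuli was fitted on the shared genes over all 24 libraries. Calls need a Benjamini-Hochberg adjusted p under 0.001 and at least 1.2-fold. M1 and M2 levels were compared as ratios of FPKM with no test. The fit was tested on simulated data. Named besides the 10 genes are up to 3 called genes of each of 5 lists with the largest absolute change with DA in WT of each stimulus. Marker lists covered macrophages, M1, M2, neutrophils, T cells, B cells, dendritic cells, mast cells, fibroblasts and epithelium. The members and lists were chosen with earlier results of these data known. Alternatives were leaving out each library, median-of-ratios scaling, a replicate block, dropping the level filter, adding 0.1 in place of 1 before the log, an adjusted p under 0.05, and the compared groups alone. Promoters and gene positions are from RefSeq of GRCm38.p6. Python 3.11.15, numpy 2.4.6, pandas 2.3.3 and matplotlib 3.10.9 were used. Results that need 3 genes of the lists, markers and similar patterns are not reported here.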

Additional observations from a re-analysis of the deposited data

Results flagged for a closer look

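The effect of DA differed between WT and DRD5-/- cells by the limma test of the difference itself, on the log2(FPKM + 1) scale and given as WT minus DRD5-/-. In M1 the differences were 0.49 for Tnf, 0.30 for Il1a, −0.71 for Il6, −0.46 for Il1rn and −0.27 for Il10ra. In M2 they were 1.03 for Tnf, 1.06 for Il10, −1.22 for Il10ra and −1.03 for Tnfrsf1b.

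The effect of DA in WT also differed between the stimuli, given as M1 minus M2. The differences were −0.91 for Il10, −0.79 for Il6, −0.71 for Il1rn and −0.59 for Tnf on the negative side. On the positive side they were 0.91 for Il10ra, 0.75 for Tnfrsf1b and 0.54 for Il1a. Il6 and Il1a lay under 1 FPKM in every M2 library and passed the filter through M1 alone. Their values are therefore no result about the stimuli, and the call of Il6 was lost with a pseudocount of 0.1.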

How the results depend on the processing

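Of 1694 values of tested genes under the alternatives, 1641 kept their direction and side of the threshold, 19 lost the call, 10 gained it and 24 changed sign, the last all below the threshold. The count of genes that differed between untreated DRD5-/- and WT M1, 94, was 43 with no level filter, 202 at an adjusted p under 0.05 and 36 to 94 without 1 library (45 without WT M1 replicate 3, 36 without DRD5-/- M1 replicate 2, 57 without DRD5-/- M1 replicate 3). At an adjusted p under 0.05 the difference of DA effects took in 1836 genes in M1, DA in DRD5-/- M2 719 and untreated DRD5-/- against WT M2 895. With no level filter, 3 of the 10 genes in place of 5 had a difference of DA effects in M1, against 582 of all 17386 in place of 841 of 10040, and the cause was not tested. Without the 2-fold limit, 9746 genes did not overlap between M1 and M2 in WT and 9713 in DRD5-/-. Leaving out libraries in that comparison was chosen after seeing the data.

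Signs turned in these ranges of log2 fold change without 1 library. With DA in WT M1, Tnfrsf1a ran from −0.00289 to 0.0375. With DA in DRD5-/- M1, Il6 ran from −0.13 to 0.0210, Osm from −0.0345 to 0.0272, Il10 from −0.0478 to 0.0597 and Tnfrsf1a from −0.0307 to 0.00201. Between untreated genotypes, Il1rn ran from −0.0356 to 0.00338 in M1, and Il10 from −0.0922 to 0.14 and Tnfrsf1a from −0.0618 to 0.00170 in M2. With DA in WT M2, Osm ran from −0.0860 to 0.0401, and with DA in DRD5-/- M2, Tnf from −0.0664 to 0.10. For WT against DRD5-/- M2 with DA, Osm ran from −0.0259 to 0.0947. Median-of-ratios scaling turned Tnf with DA in DRD5-/- M2 (−0.0130), Tnfrsf1a between untreated genotypes in M2 (0.0166) and Osm between genotypes with DA in M2 (−0.00865). The cause was not tested.

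Libraries that carry the same number did not deviate together: residuals of 18 such pairs had a mean r of −0.021 in M1 and −0.016 in M2, so the numbers were not used as pairs. With a replicate block, DA changed 1359 genes in WT M1 and 4906 in WT M2, 0 in DRD5-/- M1 by limma and 373 in DRD5-/- M2. The compared groups alone give no value for differences of DA effects between genotypes. Depth, estimated from FPKM steps only, limits Il6 in M2, where 1 fragment amounts to about 0.049 FPKM. For Il1a in M2 and Lif in M1 and M2, 1 fragment amounts to about 0.026, 0.013 and 0.014 FPKM. The lowest values there were 0.25, 0.1 and 0.69 FPKM. These genes are low and missed the level filter of 1 FPKM.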
